A study of Mus musculus with 6 samples.

Results

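Among 175929 accessible regions measured by ATAC-seq in mouse AE9a leukemia cells, 3221 lay in an exon and more than 3000 bp from the nearest transcription start site (TSS). They are the peaks whose annotation by the authors' software begins with "exon" and whose distance to a TSS exceeds that limit, so the rule that picks them uses position alone. They made up 1.83% of all peaks and 2.63% of the 122399 peaks beyond the limit, of which the remaining 119178 (mostly intronic, 56842, and intergenic, 56468) are called other distal peaks here. ATAC-seq inserts adapters into DNA that is not covered by nucleosomes, and a tag is a mapped fragment counted in a peak, in steps of 0.5. Normalized tags are tags divided by the size factor of the library.

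Fetal liver cells of the genotype Usp18+/f with a Cre transgene were transduced with a GFP-marked retrovirus that expresses AE9a, a shortened AML1/ETO fusion protein, and were transplanted into recipient mice. Both groups carried 1 floxed and 1 intact Usp18 allele as well as the Cre recombinase, which is expressed in all tissues and is active only with tamoxifen. Once the mice were sick they received oil (Usp18+/f, replicates 1, 2 and 4) or tamoxifen (Usp18+/Δ, replicates 1, 3 and 4), and Lin- c-Kit+ GFP+ cells were sorted from the spleen 3 days after the first injection. The agent and the deletion came together in the 3 tamoxifen libraries, so their effects cannot be told apart here, and since nothing in the labels ties a library to a mouse of its own, the p-values measure only the spread between these libraries, which may be technical.

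Usp18 encodes a protease that removes ISG15 from proteins and restrains interferon signaling. Most accessible sites of a genome are promoters and enhancers in introns and between genes. Coding exons are seldom among them, although some coding stretches also bind transcription factors, and a gene that is transcribed heavily can be open along its whole body, exons included.

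Total tags per library ran from 57358372 to 74667822 and the median exonic peak held 40.0 to 51.5 tags, so counting error was a sizable part of the spread at a typical exon. At the TSS of Kit, Spi1 and Runx1, genes of leukemic progenitors, the 6 libraries held 285 to 855 normalized tags, whereas the peaks nearest to the TSS of Cd3e (T cells) and of Itgam and Adgre1 (mature myeloid cells) held 11.1 to 62.8. Klf1, a marker of erythroid cells, held 248 to 342 tags at its TSS, close to the range of the progenitor genes. The peak at the TSS of Cd34, another progenitor gene, held 94.6 tags after oil and 270 after tamoxifen (means of 3), and the part of the mix of cells in the results was not tested: in bulk libraries fewer cells of a type and less open DNA per cell cannot be told apart. No exonic peak of the chosen kind lay in Usp18, and the peak 7 bp from its TSS held 438 ± 21.8 normalized tags in the oil group and 449 ± 17.0 in the tamoxifen group (mean ± SD, 3 libraries each), with a log2 change of 0.035 ± 0.10 (SE), so these peaks do not report whether the allele was lost. Over the exonic peaks, tamoxifen replicate 4 correlated with the oil libraries at 0.933 to 0.939 but with tamoxifen replicates 1 and 3 at 0.907 and 0.919 (Pearson's r of log2 values across peaks, which share libraries), while oil pairs reached 0.957 to 0.959. This library therefore stood apart from its group, and the results that rest on it are given with and without it. Oil replicates 1 and 2 differed by little more than counting noise, with 7 peaks apart at an adjusted p under 0.05 in a chi-square test of their tags, against 103 and 163 peaks for the other oil pairs. They were kept as separate libraries. The same test set 1590 peaks apart between tamoxifen replicates 1 and 3. Between tamoxifen replicate 4 and replicates 1 and 3 it set 11028 and 12032 peaks apart.

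Exons that the results below turn on are shown first, together with a stretch of very open coding sequence that did not pass the test. Each is read in the direction of its gene from the RefSeq mm10 assembly (GRCm38.p6). Capitals mark bases of the named exon and lower case the introns beside it. Peaks over 300 bp are cut to the 300 bp around their midpoint. Exons 10 and 11 of Hsph1 and exon 3 of Nfkbie hold the 3 peaks that passed the test as lower after tamoxifen, and exon 5 of Hcrtr2, exon 2 of Cdkn1a and exon 2 of Ppp2r2c are among those that passed it as higher. Exon 3 of Kank3 was the densest exonic peak of all.
Hsph1 exon 10, chr5:149627225-149627463, minus strand: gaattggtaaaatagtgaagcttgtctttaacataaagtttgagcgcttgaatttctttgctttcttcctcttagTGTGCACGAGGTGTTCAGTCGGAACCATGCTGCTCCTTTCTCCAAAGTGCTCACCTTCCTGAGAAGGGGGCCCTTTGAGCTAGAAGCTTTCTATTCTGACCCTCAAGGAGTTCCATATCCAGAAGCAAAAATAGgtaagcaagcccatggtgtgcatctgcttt
Hsph1 exon 11, chr5:149625004-149625303, minus strand: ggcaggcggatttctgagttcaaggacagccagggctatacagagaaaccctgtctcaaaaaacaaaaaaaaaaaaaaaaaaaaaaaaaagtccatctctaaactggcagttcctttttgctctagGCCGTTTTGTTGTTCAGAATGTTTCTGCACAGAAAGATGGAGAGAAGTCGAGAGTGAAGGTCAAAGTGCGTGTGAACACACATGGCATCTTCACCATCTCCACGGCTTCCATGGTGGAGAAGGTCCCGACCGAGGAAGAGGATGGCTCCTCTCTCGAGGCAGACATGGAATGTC
Nfkbie exon 3, chr17:45559104-45559403, plus strand: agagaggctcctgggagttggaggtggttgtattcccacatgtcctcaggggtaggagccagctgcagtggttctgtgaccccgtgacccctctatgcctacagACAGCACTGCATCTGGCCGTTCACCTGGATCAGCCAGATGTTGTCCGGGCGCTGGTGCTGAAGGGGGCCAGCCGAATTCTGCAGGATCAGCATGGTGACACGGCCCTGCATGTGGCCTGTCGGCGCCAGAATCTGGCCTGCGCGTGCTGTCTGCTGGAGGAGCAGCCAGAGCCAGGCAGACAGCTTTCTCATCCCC
Hcrtr2 exon 5, chr9:76236149-76236417, minus strand: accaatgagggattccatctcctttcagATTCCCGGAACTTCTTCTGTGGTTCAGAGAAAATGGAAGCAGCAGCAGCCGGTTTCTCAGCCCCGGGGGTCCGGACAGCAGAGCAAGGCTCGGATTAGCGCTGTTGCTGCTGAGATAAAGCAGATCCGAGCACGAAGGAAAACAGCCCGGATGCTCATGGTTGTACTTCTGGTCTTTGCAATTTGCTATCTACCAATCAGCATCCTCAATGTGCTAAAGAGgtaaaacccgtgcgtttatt
Cdkn1a exon 2, chr17:29098538-29098827, plus strand: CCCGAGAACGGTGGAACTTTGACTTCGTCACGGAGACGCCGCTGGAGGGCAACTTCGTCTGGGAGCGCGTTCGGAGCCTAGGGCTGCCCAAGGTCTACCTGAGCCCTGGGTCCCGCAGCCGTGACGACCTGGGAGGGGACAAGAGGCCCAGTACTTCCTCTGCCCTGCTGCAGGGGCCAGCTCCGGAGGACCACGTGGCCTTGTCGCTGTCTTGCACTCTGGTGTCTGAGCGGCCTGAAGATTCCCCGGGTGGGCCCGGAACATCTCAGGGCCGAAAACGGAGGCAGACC
Ppp2r2c exon 2, chr5:36922875-36923118, plus strand: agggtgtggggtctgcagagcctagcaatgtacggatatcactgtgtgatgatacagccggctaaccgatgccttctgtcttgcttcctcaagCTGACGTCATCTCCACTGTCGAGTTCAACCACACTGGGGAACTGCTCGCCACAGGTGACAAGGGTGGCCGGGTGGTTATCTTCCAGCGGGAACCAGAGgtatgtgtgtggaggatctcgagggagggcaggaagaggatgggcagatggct
Kank3 exon 3, chr17:33817592-33817797, plus strand: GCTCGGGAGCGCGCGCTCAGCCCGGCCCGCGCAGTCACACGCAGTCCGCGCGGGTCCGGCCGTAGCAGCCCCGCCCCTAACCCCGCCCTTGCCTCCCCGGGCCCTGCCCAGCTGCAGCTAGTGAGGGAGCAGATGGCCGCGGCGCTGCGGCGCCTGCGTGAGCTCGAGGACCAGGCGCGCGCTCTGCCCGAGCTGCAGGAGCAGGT
These stretches show the ways in which a peak can meet an exon. The Hsph1 exon 10, Hcrtr2 and Ppp2r2c peaks held the whole exon with intron on both sides, and the Ppp2r2c exon is only 98 bp long. In contrast, the Cdkn1a and Kank3 peaks lay wholly inside an exon.

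The 3221 peaks fell into exons of 2185 genes, 1581 of which held 1 such peak. Their midpoint lay in a RefSeq coding exon in 99.8% of cases, and a median of 61.4% of a peak's bases were coding. Of 3143 peaks whose exon could be placed in the reference, 1319 covered the whole exon and both of its edges, 788 lay wholly inside it and 1036 crossed 1 edge. Exon length had a median of 207 bp and a range of 19 to 11345 bp. Last exons held 702 of the peaks and first exons 10, and 2511 were internal. The gene of the exon was not always the gene of the nearest TSS, for the 2 differed at 1323 peaks. The median distance to a TSS was 10017 bp, and 1611 peaks were more than 10000 bp away.

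Exonic peaks were richer in G and C than the other distal peaks, with a median of 57.0% (quartiles 52.2% to 60.8%) against 48.9% (44.9% to 52.9%). Their observed to expected ratio of CpG was 0.346 against 0.202. Median width was 267 bp against 253 bp, and median density, in normalized tags per kb of peak over the 6 libraries, was 137 against 151. Exonic peaks within 3000 bp of a TSS were both denser, at 236, and richer in G and C, at 62.0%. The authors had called peaks in each group and merged the lists, and 692 exonic peaks (21.5%) came from the oil list alone and 369 (11.5%) from the tamoxifen list alone, compared with 18.4% and 12.3% of other distal peaks. These shares are descriptions, since peaks of 1 set of libraries are not replicates.

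**Figure D1:**
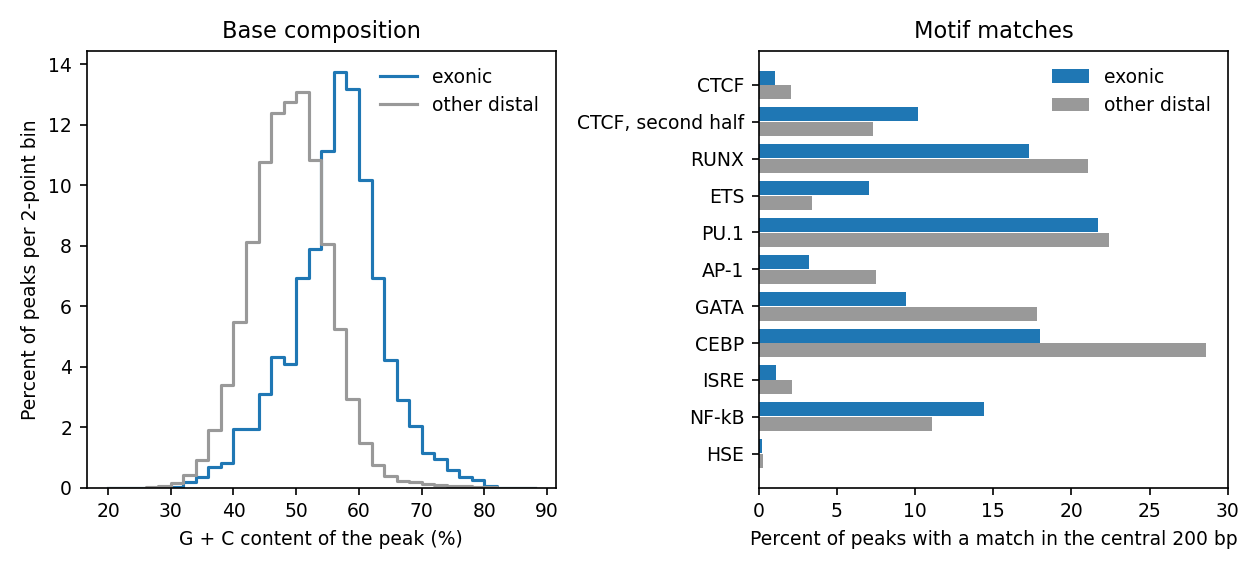
Left, percent of peaks per 2-point bin of G + C content for the exonic peaks (blue) and other distal peaks (gray). Right, percent of each set with a match to a motif in the central 200 bp, where exonic peaks exceed the others for ETS (7.02% against 3.38%) and fall below them for AP-1 (3.23% against 7.48%), GATA and CEBP.

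Short motifs of blood transcription factors were counted on both strands in the central 200 bp of each peak, where width plays no part. GATA factors drive erythroid and stem cell genes, and their letters AGATAA were in 9.44% of exonic peaks, 17.8% of other distal and 15.1% of all peaks. CEBP factors drive myeloid genes, and TTNNGNAA was in 18.0%, 28.6% and 27.0%. AP-1, the Fos and Jun dimer, has TGANTCA, which was in 3.23%, 7.48% and 6.61%. The ETS letters CCGGAA were more frequent in exons, at 7.02% against 3.38% and 5.46%, and so were the NF-kB letters (GGGA and CC, 4 bases apart), at 14.4% against 11.1% and 12.6%. RUNX letters TGTGGT, bound by AML1 and by its fusion with ETO, were in 17.3%, 21.1% and 18.7%, and the PU.1 letters GAGGAA in 21.7%, 22.4% and 21.6%. Within peaks of 50% to 60% G + C, the shares in exonic and other distal peaks were 8.28% and 12.3% for GATA, 17.2% and 22.7% for CEBP, 3.53% and 7.29% for AP-1 and 7.05% and 4.34% for ETS. In the same class RUNX letters were in 18.8% and 18.9% and NF-kB letters in 14.7% and 15.4%, so that neither difference was seen in that class. Under 50% G + C the shares were 21.3% and 23.2% for RUNX and 7.28% and 7.23% for NF-kB. At 60% or more they were 12.2% and 10.8% for RUNX and 17.9% and 23.9% for NF-kB, the reverse of the order over all classes. At 60% or more ETS letters were in 8.07% and 7.90%. In peaks under 50% G + C the order turned for GATA, with 25.2% of exonic and 22.6% of other distal peaks, and CEBP was in 33.2% and 33.8%. AP-1 letters were rarer in exonic peaks in that class too, at 4.62% against 7.77%, and at 60% or more, at 1.89% against 4.93%. The core letters of CTCF (CCNCTAG, any base, GG) were in 1.03% of exonic and 2.08% of other distal peaks, whereas a second CTCF string (CC and AGGGG, 3 bases apart) was in 10.2% and 7.34%, but in 12.2% and 14.1% of peaks of 60% G + C or more. The interferon response element (GAAA and GAAA, 2 bases apart) was in 1.12% and 2.09%, the heat shock element (GAA, TTC and GAA, each 2 bases apart) in 0.217% and 0.288%, and the E-box CANNTG in 69.4% and 70.2%. A match is a string of letters and not a bound site, and PU.1 letters also occur inside some other ETS sites.

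No change was detected at the 5 densest exonic peaks. Kank3, which encodes an ankyrin repeat protein, led with 664.7 ± 40.6 normalized tags (SD, n = 3) in exon 3 after oil and 695 ± 53.4 (SD, n = 3) after tamoxifen. The others lay in exon 3 of Maff, a small Maf transcription factor, exon 6 of Prdm2, a PR domain zinc finger protein, exon 9 of Carns1, carnosine synthase, and exon 2 of Fbxo2, an F-box protein. Log2 changes of the 5 ran from -0.05 to 0.06, with 95% intervals that together reached from -0.22 to 0.24, and adjusted p-values from 0.955 to 0.981. In G + C content they ranged from 65.6% to 76.7%, above the upper quartile of exonic peaks.

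The exonic peaks were next compared between Usp18+/f (oil) and Usp18+/Δ (tamoxifen) cells, and few changed. A peak is called here when its level differed over 2-fold with an adjusted p under 0.05. By this rule 18 of 3221 exonic peaks (0.559%) were called in 17 genes, where the same rule called 0.654% of all peaks (1150) and 0.815% of other distal peaks. Of the 18 peaks, 15 rose (0.466% of exonic peaks, beside 0.588% of all peaks) and 3 fell (0.0931% beside 0.0659%), and 2 of these 3 lie in 1 gene, Hsph1. At an unadjusted p under 0.05, 234 exonic peaks (7.26%) stood beside 9.02% of all peaks, and the 3 tamoxifen values lay wholly above or below the 3 oil values at 20.4% of exonic peaks and 21.9% of all peaks. Thus the shares over both directions were near or below the background. The median log2 change was 0.00 among exonic peaks (quartiles -0.18 and 0.19), 0.00 among all peaks and 0.01 among other distal peaks. All p-values are from 1 DESeq2 fit of all peaks.

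**Figure D2:**
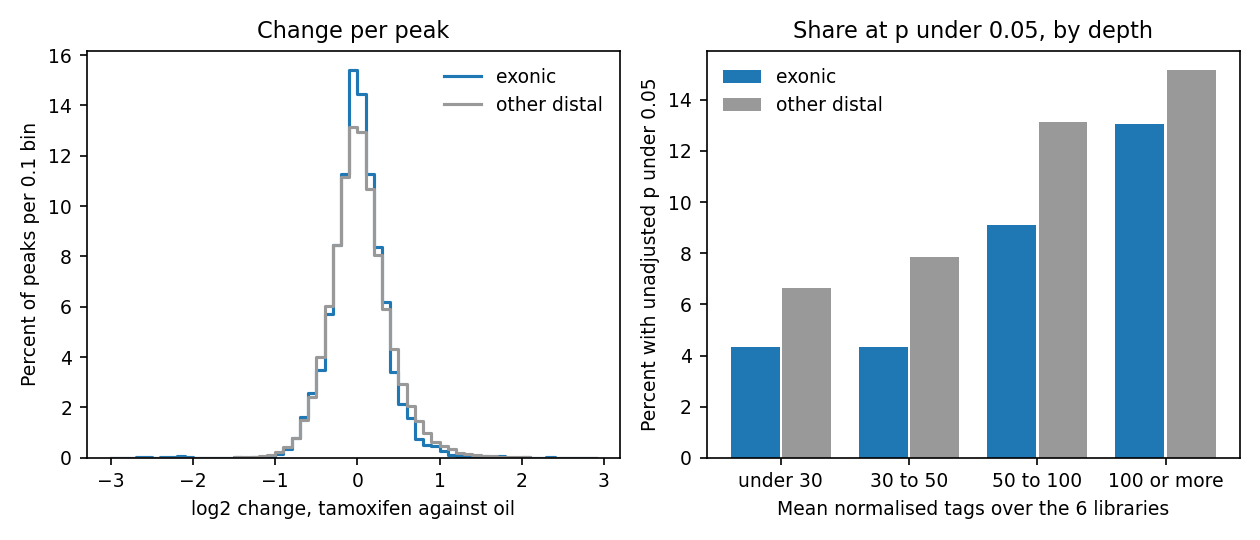
Left, percent of exonic (blue) and other distal (gray) peaks per 0.1 bin of log2 change, tamoxifen against oil. Right, percent with an unadjusted p under 0.05 in 4 classes of mean normalized tags, rising from 4.35% to 13.1% among exonic peaks and from 6.65% to 15.2% among other distal peaks.

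The libraries used mattered. Without tamoxifen replicate 4, 45 exonic peaks (1.40%) were called, 28 higher and 17 lower, beside 1.54% of all peaks and 1.92% of other distal peaks. The lower calls made up 0.528% of exonic peaks and 0.435% of all peaks, and 7 of the 17 were exons of Hsph1. Without tamoxifen replicate 3 the count was 7, and without oil replicate 4 it was 9. Where 1 library other than tamoxifen replicate 4 was left out, 383 to 1001 exonic peaks received no adjusted p. edgeR called 22 exonic peaks (0.683%), beside 1.03% of all peaks, and 16 of the 18, the exceptions being Mcf2l and Mfsd6. Of the 18 peaks, 17 were among the 45.

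The share at an unadjusted p under 0.05 rose with mean normalized tags, from 4.35% of exonic peaks under 30 tags to 13.1% at 100 or more, and in each of the 4 classes of depth it was lower than among other distal peaks of the same class (6.65% to 15.2%). Called peaks were spread over exons of every length, with 6 of 920 in exons up to 150 bp, 5 of 997 up to 300 bp, 3 of 447 up to 1000 bp and 4 of 779 above that. Peaks that held a whole exon were called in 9 of 1319 cases, those inside an exon in 5 of 788, and those over 1 edge in 4 of 1036. Last exons held 3 called peaks, all higher. The median log2 change in each of these classes of exon length and position was between -0.01 and 0.02. By depth it was -0.06 under 30 tags and 0.02 at 100 or more, beside -0.02 and 0.015 among other distal peaks.

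Exons of Hsph1 showed the largest falls. Hsph1 encodes a large cytosolic heat shock protein that serves as a nucleotide exchange factor for Hsp70 chaperones. At exon 11 of 18 (chr5:149624944-149625364, 11161 bp from the TSS) the oil libraries held 65.6, 69.2 and 112 normalized tags and the tamoxifen libraries 9.18, 12.3 and 25.6. The groups did not overlap, and replicate 4 was the highest of each. The log2 change was -2.36 ± 0.355 (SE), with an adjusted p of 5.96e-08. At exon 10 (chr5:149627225-149627463) the values were 42.5, 44.4 and 60.9 after oil and 3.87, 5.57 and 14.9 after tamoxifen, again without overlap. Its log2 change was -2.58 ± 0.45 (SE), with an adjusted p of 5.75e-06.

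Hsph1 had 5 further exonic peaks, in exons 4, 5, 8, 13 and 18, that missed the call, with adjusted p-values of 0.057 to 0.167. Their log2 changes lay between -2.60 and -2.04, as large as in exons 10 and 11, and their standard errors were larger. Exon 4, for instance, held 67.8, 81.4 and 133 tags after oil and 8.22, 13.9 and 36.8 after tamoxifen. In all 7 exons the tamoxifen libraries lay below the oil libraries, and in each of them tamoxifen replicate 4 was the highest of its group. Without that library all 7 were called, at log2 changes from -4.00 to -2.93. All 7 peaks came from the oil peak list alone, so they were measured only because they passed peak calling in the higher group. That choice favors a fall, and the lack of overlap is no separate support for it.

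**Figure D3:**
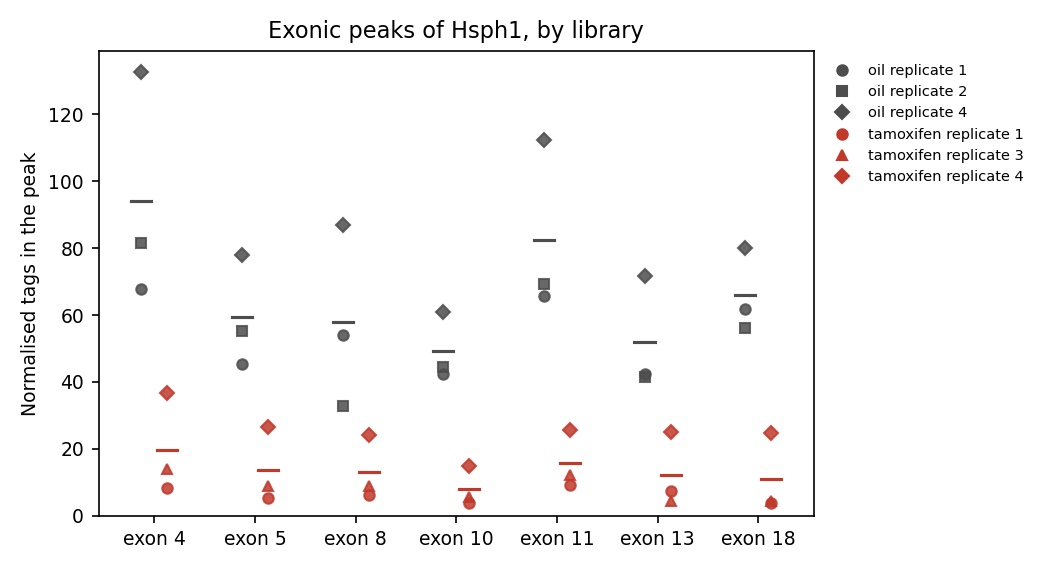
Normalized tags (vertical axis, linear from 0) in the 7 exonic peaks of Hsph1, with 1 symbol per library, oil in gray and tamoxifen in red, and bars at group means. Every tamoxifen value is below every oil value of the same exon, and tamoxifen replicate 4 is the highest of its group in each.

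The falls were not particular to exons. The 19656 bp of Hsph1 held 36 peaks in all, and the 35 with a midpoint over 500 bp from the gene start were all lower in each tamoxifen library than in each oil library, with log2 changes from -2.76 to -0.71 and 17 of them called. The peak at -64 bp from the TSS, the most open of the gene, held 679 tags after oil and 680 after tamoxifen (means of 3), a log2 change of 0.002 ± 0.085 (SE). Thus the gene body fell, introns and exons alike, while no change was detected at its start. The fall did not stop at the gene end. Peaks past it, out to 22377 bp from the gene start, had log2 changes from -2.51 to -2.18. All of them lay below all oil values, and those at 20840 and 21583 bp were called.

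Nfkbie fell along its body as well. It encodes an inhibitor that holds NF-kB in the cytoplasm. At exon 3 of 6 (chr17:45559086-45559422, 3554 bp from the TSS) the oil libraries held 172, 209.7 and 241 tags and the tamoxifen libraries 64.3, 53.5 and 105, without overlap. The log2 change was -1.48 ± 0.21 (SE), with an adjusted p of 8.60e-09. Of the 15 peaks inside the 7470 bp of the gene, the 14 with a midpoint over 500 bp from its start lay below all oil values, and their log2 changes ran from -1.53 to -0.46, with 7 called. The peak at -102 bp from the TSS had a log2 change of 0.005 ± 0.096 (SE), but its neighbors at 199, -535 and -2143 bp lay below all oil values, at -0.42, -0.625 and -1.07, and the last of these was called. The exon 3 peak lies 8356 bp from Hsp90ab1, another chaperone gene, which has 2 exonic peaks of its own described below.

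Cdkn1a moved the other way. It encodes p21, an inhibitor of cyclin-dependent kinases and a target of p53. The peak in exon 2 of 3 (chr17:29098538-29098827, 4913 bp from the nearest TSS) held 52.9, 49.7 and 39.0 tags after oil and 118, 126 and 73.1 after tamoxifen, without overlap but with tamoxifen replicate 4 lowest of its group. The log2 change was 1.16 ± 0.25 (SE), with an adjusted p of 0.00114. Over the 9744 bp of the gene 11 of 12 peaks lay above all oil values, and the log2 changes of the 12 ran from 0.05 to 1.19, with 2 called. The peak at an internal TSS of the gene, at -34 bp, had a log2 change of 0.11 ± 0.09 (SE) and an adjusted p of 0.855. At the gene start itself, the peak at -51 bp held 12.6 tags after oil and 25.4 after tamoxifen (means of 3). It lay above all oil values but was not called, with a log2 change of 1.03 ± 0.45 (SE) and an adjusted p of 0.380. Leaving out oil replicate 4 ended the call of the exon 2 peak (adjusted p 0.064), as did leaving out tamoxifen replicate 1 (0.055) or 3 (0.109).

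**Figure D4:**
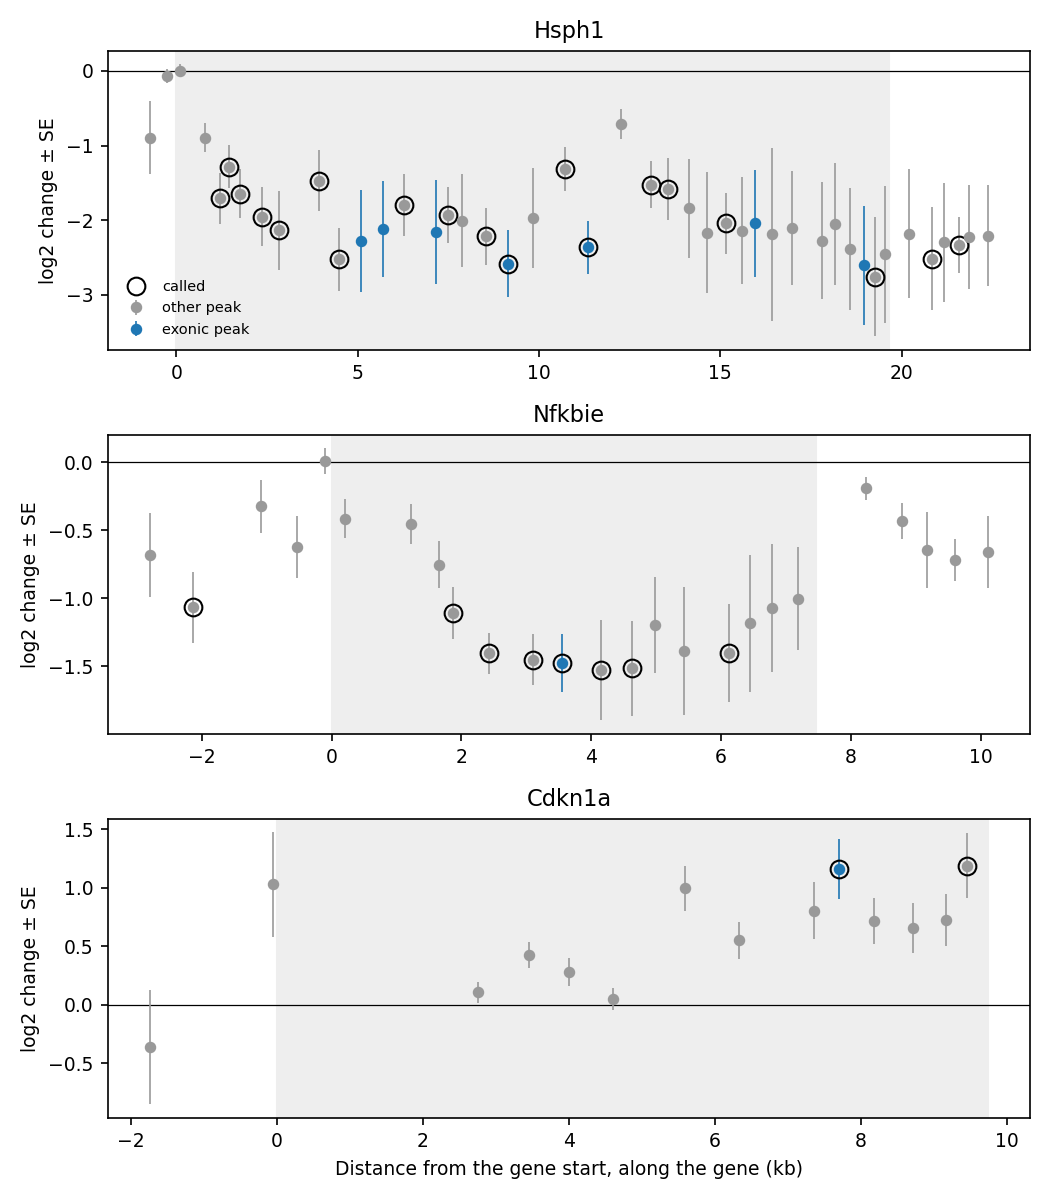
Log2 change (tamoxifen against oil, ± SE) of each peak against distance from the gene start in kb, for Hsph1, Nfkbie and Cdkn1a. Gray shading marks the gene, blue points the exonic peaks over 3000 bp from a TSS, gray points other peaks and black rings called peaks, and changes reach -2.76 in the body of Hsph1 and -1.53 in that of Nfkbie, with 0.002 and 0.005 at the peak nearest to each TSS and lower values beside it.

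Among the peaks that rose, the smallest adjusted p belonged to exon 5 of Hcrtr2, a receptor for orexin (chr9:76236149-76236417). It held 115, 115 and 126 tags after oil and 286, 255 and 243 after tamoxifen, with a log2 change of 1.14 ± 0.15 (SE) and an adjusted p of 7.69e-11. The nearest TSS was that of Gfral, relative to which it lay at -22626 bp (a minus sign marks the upstream side). In the same gene 4 other distal peaks all reached an unadjusted p under 0.05, with log2 changes of 0.64 to 1.57, and 1 of them was called.

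Exon 3 of Rai1, which encodes a nuclear protein of transcriptional control, holds a peak in 5527 bp of coding exon (chr11:60186020-60186227). It held 104, 93.1 and 82.0 tags after oil and 207, 241 and 133 after tamoxifen, a log2 change of 1.05 ± 0.20 (SE) with an adjusted p of 0.000108. None (0) of the 16 other distal peaks in the gene was called, 1 had an unadjusted p under 0.05, and they ran from -0.38 to 0.51. Exon 3 of Schip1 (chr3:68616415-68616648) held 45.8, 61.4 and 60.9 tags after oil and 114, 129 and 113 after tamoxifen, with a log2 change of 1.07 ± 0.21 (SE) and an adjusted p of 0.000212. At both peaks all 3 tamoxifen values were above all oil values, and at Rai1, though not at Schip1, tamoxifen replicate 4 was far below the other two.

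Krt71, a hair follicle keratin, had a peak in its last exon (exon 9, chr15:101734538-101734760) with 31.2 ± 7.89 tags (SD, n = 3) after oil, 75.9 ± 11.5 (SD, n = 3) after tamoxifen and a log2 change of 1.31. Fbln2, an extracellular matrix protein, rose in exon 9 (chr6:91259499-91259901) from 22.4 ± 3.85 to 60.7 ± 7.18, a log2 change of 1.45. Both gained from a low level, and no oil value exceeded a tamoxifen value. Kcnk12, a potassium channel subunit, rose in exon 2 (chr17:87746127-87746639) from 46.8 ± 9.17 to 99.3 ± 10.8, and Grm6, a glutamate receptor of the retina, in exon 11 (chr11:50864468-50864678) from 15.2 ± 6.56 to 49.2 ± 15.2. The peak at -487 bp from the Grm6 TSS also rose, from 4.81 to 35.0 tags, and was the 1 called peak among the TSS peaks of the 14 called exonic peaks that had one.

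Ppp2r2c, a regulatory subunit of protein phosphatase 2A, had the largest rise of those named by the rule. Its exon 2 peak (chr5:36922875-36923118) held 11.0, 11.7 and 8.06 tags after oil and 49.8, 46.8 and 25.6 after tamoxifen, with a log2 change of 2.00 ± 0.43 (SE) and an adjusted p of 0.000931. Mcf2l, a guanine nucleotide exchange factor, rose in exon 21 (chr8:13010397-13010618) from 79.1 ± 11.0 to 161 ± 55.3 tags (SD, n = 3 each), a log2 change of 1.02 ± 0.23 (SE) with an adjusted p of 0.00212. In both, tamoxifen replicate 4 was the lowest of its group but above every oil value.

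The remaining 5 called peaks ranked below the 10 that the rule names and are given after their values were seen. They lay in exon 2 of Mfsd6, exon 10 of Slc7a8 (an amino acid transporter), exon 20 of Plekha5, exon 6 of Rassf6 and exon 2 of Rubcnl (a regulator of autophagy), with log2 changes of 1.24 to 2.37 and adjusted p-values of 0.00544 to 0.0218. Slc7a8 had the largest change and the fewest tags, at 4.41, 6.34 and 4.03 after oil and 28.5, 27.3 and 15.8 after tamoxifen. Its nearest TSS was that of Cebpe, a myeloid transcription factor, at -12689 bp. Of the 15 peaks that rose, 8 came from the tamoxifen peak list alone and 7 from both lists, and tamoxifen replicate 4 was the lowest of its group in 10. The 8 were measured only because they passed peak calling in the higher group, which favors a rise and a lack of overlap.

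Many of these calls were lost when a library was dropped. With 1 library left out, Hcrtr2, Nfkbie and exon 11 of Hsph1 were called each time. Mcf2l missed the call in edgeR (adjusted p 0.065) and when oil replicate 4 (0.091) or tamoxifen replicate 1 (0.188) or 3 (0.797) was dropped. Rai1 and Schip1 fell under the fold limit, Rai1 at a log2 change of 0.97 without oil replicate 4 and 0.87 without tamoxifen replicate 3, and Schip1 at 0.95 without oil replicate 1. Kcnk12 did so too, at 0.93 without oil replicate 1 and 0.995 without tamoxifen replicate 1. Krt71 reached an adjusted p of 0.051 without oil replicate 4, Fbln2 0.063 without tamoxifen replicate 3, and Grm6 0.130 without oil replicate 4 and 0.065 without tamoxifen replicate 1. Mfsd6 had an adjusted p of 0.055 in edgeR and was lost without oil replicate 1 (0.104) or 2 (0.087) and without tamoxifen replicate 3 (0.568) or 4 (0.125). Rassf6 and Rubcnl were lost without oil replicate 1 (0.162 and 0.251). Of the peaks of few tags, Ppp2r2c, Plekha5, Slc7a8 and exon 10 of Hsph1 kept the call in each fit that gave them an adjusted p, and had none in 4, 5, 6 and 3 fits.

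**Figure D5:**
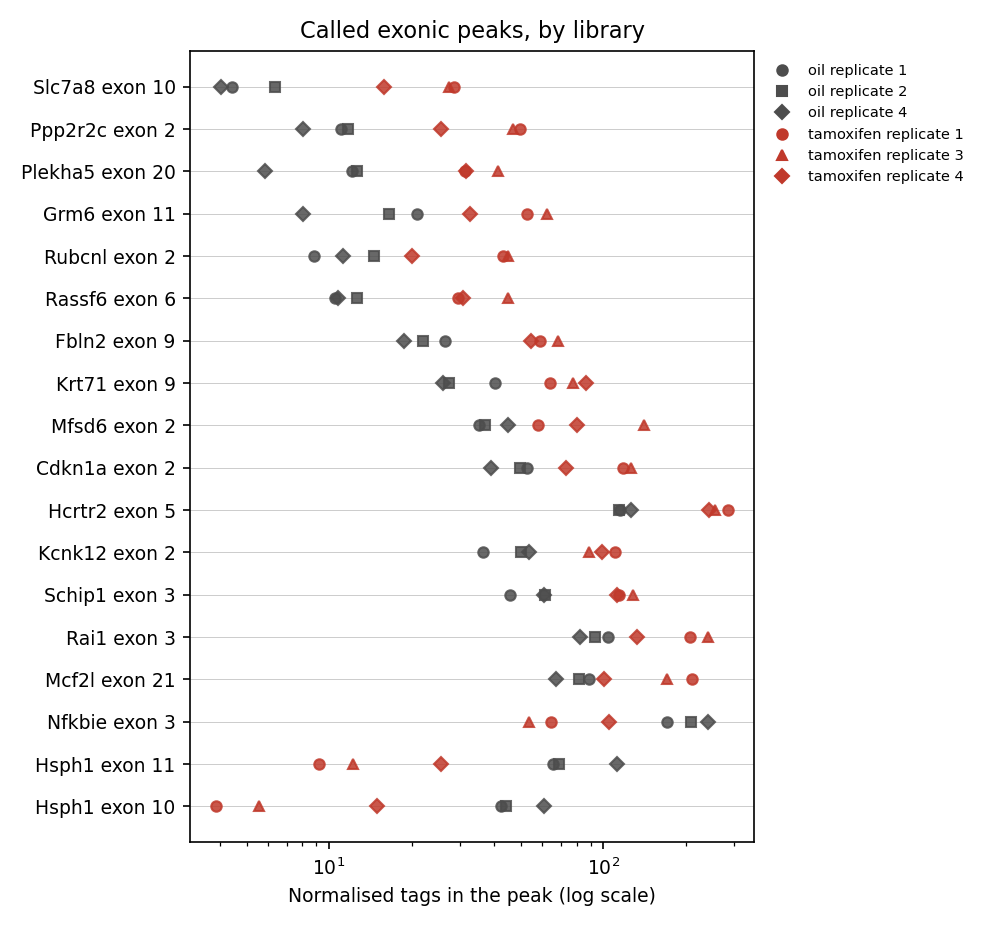
Normalized tags (log axis) in each of the 18 called exonic peaks, ordered by log2 change, with oil libraries in gray and tamoxifen libraries in red and 1 symbol shape per replicate number. The groups do not overlap in any of the 18, and the red diamond of tamoxifen replicate 4 is the lowest tamoxifen value in 10 of the 15 peaks that rose.

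Log2 changes of nearby peaks tended to have the same sign. For each of the 18 called exonic peaks the nearest peak of any kind had a log2 change of the same sign, and 7 of these neighbors had an adjusted p under 0.05. Some of these changes were small, such as 0.055 beside Fbln2, 0.23 beside Rassf6 (7328 bp away) and 0.28 beside Kcnk12 (27015 bp away). The 18 were picked by their own change, and the share of like signs over all exonic peaks was not counted. Across all exonic peaks with another distal peak within 1000 bp (2017), Pearson's r between the log2 changes of the pair was 0.57, and it was 0.33 for the 353 pairs 5000 to 20000 bp apart. Intronic peaks gave 0.63 and 0.31. Neighbors share libraries and can share fragments, so these values are given without a test.

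Chaperone genes beyond Hsph1 had few exonic peaks. Of 40 genes in a list of heat shock proteins and chaperones, 5 had such peaks, 12 in all, of which 2 fell and none (0) rose by the call in DESeq2, while edgeR called 4. At an unadjusted p under 0.05, 8 of the 12 were lower and 1 higher, and the list's median log2 change was -2.08, against 0.00 over all peaks; 7 of the 12 are the Hsph1 exons. Hsp90ab1, a cytosolic Hsp90, had values of 460, 490 and 546 after oil and 247, 304 and 442 after tamoxifen in exon 9, a log2 change of -0.59 ± 0.26 (SE) with an adjusted p of 0.389. Its exon 7 peak was at -0.68 ± 0.35 (SE), where tamoxifen replicate 4 held 151 tags against 68.6 and 79.7 in the others of its group, and was called lower without that library. Bag3, Dnaja1 and Hspa5 each had 1 exonic peak, with log2 changes of -0.71, 0.64 and 0.11, and none of these 3 was called. Without tamoxifen replicate 4, 8 of the 12 were called lower, 7 of them exons of Hsph1, beside the 0.435% of all peaks called lower in that fit.

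In the other lists calls were rare. Interferon response genes had 5 exonic peaks in 4 of 49 genes, with log2 changes from -0.45 to -0.035, of which 0 were called by DESeq2 or edgeR and 0 had an unadjusted p under 0.05. The 3 with the smallest p lay in Parp14 (-0.25 ± 0.18), Oasl1 (-0.45 ± 0.45) and Stat3 (-0.165 ± 0.23, SE). Genes of NF-kB and inflammation had 18 peaks in 10 of 36 genes, and Nfkbie was the 1 called, beside log2 changes of 0.665 for Zc3h12a and 0.56 for Nfkbiz, a ribonuclease and a nuclear IkB protein. Genes of p53 and damage had 6 peaks in 6 of 27 genes, with Cdkn1a the 1 called. There, the Atr kinase was at -0.64 ± 0.22 in exon 22 (adjusted p 0.157) and Bbc3, the p53 target PUMA, at -0.26 ± 0.14 in exon 3 (adjusted p 0.59).

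Transcription factors and cofactors of blood cells had 22 exonic peaks in 14 of 47 genes, with 0 called by either tool and 2 at an unadjusted p under 0.05. Tcf7l2 was at -0.38 ± 0.14 in exon 13, Runx1 at 0.69 ± 0.34 in exon 6 and Zfpm1, a cofactor of GATA1, at -0.46 ± 0.30 in exon 10. Chromatin regulators had 39 peaks in 14 of 55 genes, also with 0 called by either tool and 2 at an unadjusted p under 0.05. Of the 39 log2 changes 28 were below 0, but 18 of the 39 peaks lay in 1 gene, Kmt2d. The median of the 39 was -0.077, beside -0.001 over all peaks. Kmt2d, a histone H3K4 methyltransferase, had more exonic peaks than any other gene, 18 in 9 exons. Their log2 changes lay between -0.72 and 0.335 with none (0) at an unadjusted p under 0.05, and their density between 78.2 and 209 tags per kb. Kmt2c, its relative, was at 0.86 ± 0.31 and Arid1a, a subunit of SWI/SNF, at -0.92 ± 0.39 (SE), with adjusted p-values of 0.176 and 0.345. Immediate early and signaling genes had 8 peaks in 6 of 37 genes and 0 calls by either tool, with 1 at an unadjusted p under 0.05. That was Tiam1, an exchange factor for Rac, at 0.99 ± 0.32 (adjusted p 0.099), which was called higher without tamoxifen replicate 4, and Fosb and Flt3 were at 0.16 and -0.31.

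Lists of genes of T cells, B cells, mature myeloid cells and erythroid cells held from 0 to 11 exonic peaks each. The share of all genes that hold such a peak was not counted. These counts therefore do not show whether a list is rich or poor in exonic peaks. T cell genes had 0 exonic peaks in 12 genes, B cell genes 1, in Cd22 (0.54 ± 0.26), and mature myeloid genes 1, in Mmp9 (0.17 ± 0.285, SE). The first had an unadjusted p under 0.05 and was not called. Erythroid genes had 11 in 4 of 16 genes, 9 of them below 0, with 0 called by either tool and 1 at an unadjusted p under 0.05. The median log2 change of the 11 was -0.246, beside -0.001 over all peaks. The membrane anchor Ank1 was at -0.59 and -0.53 in 2 exons. Among gene families, Zfp genes had 27 exonic peaks and Col genes 19, with 2 each at an unadjusted p under 0.05, Hox genes 2 and Pcdh genes 5, with 0 at that level. By DESeq2 and edgeR 0 peaks of these families were called, but exon 2 of Col6a3 was called higher without tamoxifen replicate 4 (adjusted p 0.0011).

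Other genes with many exonic peaks gave few changes. Sptbn4 (12 peaks), Son (9), Adgra2, Cacna1a, Ltbp3, Shank1, Srrm2 and Zswim8 (8 each) had none (0) called. Without tamoxifen replicate 4, exons 8 and 10 of Zswim8 each had 1 peak called higher (adjusted p 0.00828 and 0.00533). In Zswim8 all 8 log2 changes were above 0, from 0.32 to 1.06, and 3 reached an unadjusted p under 0.05. Son and Srrm2 encode scaffolds of nuclear speckles, and the 9 peaks of Son lay in 2 exons and the 8 of Srrm2 in 1, with log2 changes from -0.46 to 0.51 and from -0.67 to 0.225.

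Of the exonic peaks called only without tamoxifen replicate 4, a few are given here, chosen after their values were seen. Tecr, an enzyme of fatty acid elongation, held 44.7, 68.3 and 54.7 tags in exon 4 after oil and 186, 234 and 81.0 after tamoxifen, and Vps28, a subunit of the ESCRT machinery, 54.6, 50.2 and 55.1 in exon 9 against 129, 145 and 42.8. Fam20b, a xylose kinase, held 173, 183 and 193 in exon 2 against 81.2, 75.8 and 191. In Vps28 and Fam20b the value of tamoxifen replicate 4 was within or below the oil values. Of the 17 peaks lower without this library, 14 had a G + C content under 50%, 7 of the 17 being in Hsph1, and of the 28 higher 4 did. Among other distal peaks 481 of 643 lower and 970 of 1650 higher peaks were under 50%. Called or not, 563 of all 3221 exonic peaks and 67167 of all 119178 other distal peaks were under 50%. The part of base composition in these calls was not tested.

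The share of tags in exonic peaks differed between groups by less than the spread. They held 1.24%, 1.26% and 1.29% of tags in peaks after oil and 1.29%, 1.25% and 1.26% after tamoxifen, with means of 1.26% ± 0.0237 and 1.27% ± 0.0225 (SD, n = 3 each). The difference of 0.00687 percentage points gave p = 0.7 in an exact two-sided permutation test, whose smallest possible p with 3 against 3 is 0.1.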

How the data were processed

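ATAC-seq reads of 6 libraries (3 oil, 3 tamoxifen) were aligned to mm10 with Bowtie2 and peaks were called in each group, merged and annotated with HOMER, per the labels and the study's methods. The deposited values are estimated counts: raw tags per peak in steps of 0.5, with at most 3 tags per position, as the authors made them. Here they were rounded to whole numbers and all 175929 peaks were fitted with DESeq2 1.42.0 (Wald test, Benjamini-Hochberg adjustment over all peaks, R 4.3.3). Calls needed an over 2-fold difference with an adjusted p under 0.05. edgeR 4.0.16 (quasi-likelihood) was the alternative tool. Exons and sequences came from RefSeq, and tables were made with Python 3.11.15, pandas 2.3.3 and pysam 0.24.0. The scripts were tested on simulated data. Text names the 10 called peaks with the smallest adjusted p in each direction whose groups did not overlap, the 5 densest peaks and up to 3 peaks per gene list by unadjusted p. The exonic peaks and the gene lists were chosen with earlier results of these data known. Alternatives were the size factors, a filter at a mean of 20 tags, the annotation, the distance limit and leaving out each library. Some items are not reported here.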

Additional observations from a re-analysis of the deposited data

How the results depend on the processing

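The count of 18 called exonic peaks ranged from 7 to 45 when 1 library was left out: it was 9 without oil replicate 4, 7 without tamoxifen replicate 3 and 45 without tamoxifen replicate 4. The counts by gene list and exon class without tamoxifen replicate 4 were added after seeing the data. Leaving out a library also leaves fewer samples in the fit. The count was 31 with no fold limit. A replicate block on the numbers 1 and 4, which both groups share, left 4 libraries and 2 calls, both lower. Same-numbered libraries did not deviate together (correlations of -0.044 and 0.051). Counting error in the tags also lowers such correlations, so they cannot settle whether the numbers pair the samples. The median log2 change of exonic peaks ranged from -0.016 to 0.014 when 1 library was left out, 0.014 being without tamoxifen replicate 3. The difference in the exonic share of tags turned to -0.0167 percentage points over distal peaks alone, where the cause was not tested, and ranged from -0.0055 to 0.0201 when 1 library was left out, below 0 when oil replicate 1 (-0.0029) or tamoxifen replicate 1 was dropped. No log2 change of the 18 called peaks turned direction in the alternatives that gave an adjusted p. Calls were kept at 12 of 12 for Hsph1 exon 11, 11 of 12 for Hcrtr2 and Nfkbie, 8 of 12 for Cdkn1a, 7 of 12 for Mcf2l and 6 of 12 for Mfsd6, and Slc7a8 had an adjusted p in only 5, all kept. Smaller fits gave many exonic peaks no adjusted p, and those are not counted as lost. With a median of 40.0 to 51.5 tags in an exonic peak, changes at peaks of typical depth had to be large to be called.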
